A study of Mus musculus with 6 samples.

Results

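Toll-like receptors (TLRs) are membrane proteins that sense microbial molecules and molecules released by damaged cells. The 10 genes described here, Tlr1 to Tlr9 and Tlr13, were taken by name from the 34745 genes of the deposited expression table, and all 10 were found. The samples were 6 tumours of Hep1-6, a hepatoma line of mouse origin, in C57BL/6J mice that had received the cells under the skin. The hosts of 3 tumours ate a normal diet (ND 1 to ND 3), and those of the other 3 a high cholesterol diet (HCD 1 to HCD 3). The labels name no genetic change in the mice or the cells, no drug, and neither the age of the mice nor the length of feeding. They do not state that each tumour came from a different animal, so the p-values rest on the spread among these samples, which may be technical. The comparison asked which TLR transcripts differed with the diet of the host.

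A TLR binds its ligand with an outer domain of leucine-rich repeats and signals through an inner TIR domain. Tlr1, Tlr2, Tlr4, Tlr5 and Tlr6 act at the cell surface on bacterial lipids and proteins, whereas Tlr3, Tlr7, Tlr8, Tlr9 and Tlr13 act in endosomes on nucleic acids. Most signal through the adaptor Myd88, Tlr3 signals through Ticam1 (TRIF) and Tlr4 uses both, which leads to NF-kB and interferon regulatory factors. Macrophages and dendritic cells are the main carriers of most TLRs, and hepatocytes and other tissue cells can carry some of them.

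Promoter sequence is shown for 4 members because macrophage genes often carry sites for PU.1, the myeloid lineage factor, and because TLRs can be targets of NF-kB. RefSeq promoter windows (GRCm38.p6) of 250 bases upstream of the gene start were matched for 8 of the 10 members; Tlr4 and Tlr7 were not matched. Bases that GENCODE M21 places inside the gene are left out of the sequences, which are written 5′ to 3′. Capitals mark the PU.1 letters GAGGAAG in Tlr1, Tlr9 and Tlr13, the AP-1 letters TGANTCA also in Tlr9, and the NF-kB consensus in Tlr2, searched on both strands. Tlr1 is at chr5:64933564-64933808 (minus strand), Tlr9 at chr9:106222348-106222597 (plus strand), Tlr13 at chrX:106143025-106143203 (plus strand) and Tlr2 at chr3:83841768-83841858 (minus strand).
Tlr1: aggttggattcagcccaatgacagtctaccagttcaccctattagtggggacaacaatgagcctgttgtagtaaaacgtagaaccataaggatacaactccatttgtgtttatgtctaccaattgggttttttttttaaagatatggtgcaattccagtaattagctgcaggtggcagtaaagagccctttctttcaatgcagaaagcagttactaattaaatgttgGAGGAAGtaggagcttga
Tlr9: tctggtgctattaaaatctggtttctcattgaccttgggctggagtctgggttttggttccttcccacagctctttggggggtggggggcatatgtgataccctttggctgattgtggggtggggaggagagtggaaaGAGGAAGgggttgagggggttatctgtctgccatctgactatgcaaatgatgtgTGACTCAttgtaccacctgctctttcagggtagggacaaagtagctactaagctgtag
Tlr13: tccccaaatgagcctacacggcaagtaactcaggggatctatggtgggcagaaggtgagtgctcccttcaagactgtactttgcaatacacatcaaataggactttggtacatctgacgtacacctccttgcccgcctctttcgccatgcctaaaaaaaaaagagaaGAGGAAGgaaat
Tlr2: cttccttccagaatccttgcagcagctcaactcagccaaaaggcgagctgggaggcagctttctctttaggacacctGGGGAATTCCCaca

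The PU.1 letters began 23 bases upstream of the RefSeq start of Tlr1, 112 bases upstream in Tlr9 and 83 bases upstream in Tlr13. They were in 3 of the 8 matched members and in 10.6% of 32851 RefSeq windows of the same length. The AP-1 letters began 58 bases upstream in Tlr9, the 1 member of 8 that held them, against 6.75% of all windows. The NF-kB consensus was in Tlr2, where overlapping matches began 173 and 172 bases upstream, and in Tlr3, 211 bases upstream. The Tlr3 window ends at a RefSeq start 700 bases inside the M21 gene, so this match lies within that gene. With it the count was 2 of 8 members, against 7.25% of all windows. The interferon-stimulated response element (TTTC, any 2 bases, TTTC) was in none of the 8 and in 2.98% of all windows. A match describes letters in these windows and is not evidence that a factor bound there.

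Depth implied by the steps between values was 20351637 to 26228073 fragments per library, and correlations of log2 values between libraries ran from 0.960 to 0.986. The hepatoma label was met by high levels of some hepatoma markers and not of all 9. Alb, the albumin gene, was at 1176 to 1672 FPKM (fragment counts divided by gene length and library size). Afp, the fetal counterpart, was at 109 to 197 FPKM. Ttr was at 5.61 to 12.9 FPKM, and Apoh did not exceed 0.176 FPKM. Host cells were present in all 6 tumours. The summed level of 12 macrophage and monocyte markers was 263 to 626 FPKM in ND and 433 to 1033 FPKM in HCD, lowest in ND 1 and highest in HCD 2. Skeletal muscle transcripts were high in ND 2 and HCD 1, at 681 and 818 FPKM summed over 7 genes, against 5.14 to 81.8 FPKM in the other libraries.

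Of the surface receptors Tlr4 was the most abundant. It recognises bacterial lipopolysaccharide together with Ly96 (MD-2), and its gene spans chr4:66827584-66930284 on the plus strand in M21. Values are given here in the order of replicates 1 to 3. Deposited levels were 11.1, 9.72 and 8.70 FPKM under ND against 8.41, 10.1 and 8.49 FPKM under HCD. The highest library was ND 1 and the groups overlapped. The difference, HCD minus ND in log2(FPKM + 1), the scale used throughout, was -0.11 ± 0.11 (SE, n = 3 against 3), with an adjusted p of 0.827 (limma, Benjamini-Hochberg over 13417 genes). Tlr4 varied 1.32-fold between its lowest and highest library, the narrowest range of the 10 members. Its difference was -0.03 without ND 1 and -0.19 without HCD 2. It was read from 1157 to 1724 fragments per library.

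Tlr2 recognises bacterial lipoproteins as a pair with Tlr1 or Tlr6. Its gene is at chr3:83836272-83841767 on the minus strand. Levels were 4.69, 6.57 and 4.96 FPKM under ND against 6.75, 9.10 and 4.996 FPKM under HCD. HCD 1 and HCD 2 were above all ND libraries, and HCD 3 lay within the ND range. The difference was 0.29 ± 0.21 (SE), with an adjusted p of 0.795, and did not pass the test. It was 0.10 without HCD 2 and 0.48 without HCD 3.

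Tlr1, the partner of Tlr2 for triacylated lipoproteins, was at 1.38, 2.85 and 2.35 FPKM under ND against 2.59, 3.95 and 2.22 FPKM under HCD. ND 1 was lowest and HCD 2 highest, and the other 4 libraries lay close together. The difference was 0.30 ± 0.23 (SE), with an adjusted p of 0.805. It was 0.10 without ND 1 and 0.12 without HCD 2. Tlr6, the partner for diacylated lipoproteins, was at 1.04, 1.84 and 1.45 FPKM under ND against 1.29, 1.99 and 1.23 FPKM under HCD, with the same lowest and highest library. Its groups covered nearly the same range, and its difference was 0.04 ± 0.17 (SE), with an adjusted p of 0.966. The sign for Tlr6 turned without ND 1 (-0.09) and without HCD 2 (-0.10).

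Tlr1 (chr5:64924679-64933563) and Tlr6 (chr5:64952031-64960097) are neighbours on the minus strand, 18467 bases apart. Of the 50-base stretches of M21 exon sequence, 13.6% of those in Tlr1 also occurred in Tlr6 and 12.3% of those in Tlr6 occurred in Tlr1, so the division of reads between these genes is uncertain. Ratios between receptors were taken per kilobase of merged M21 exons, in which overlapping exons count once, and not in deposited FPKM. The ratio of Tlr1 to Tlr6 was 2.21, 2.58 and 2.71 under ND against 3.34, 3.30 and 3.01 under HCD. All 3 HCD ratios were above all ND ratios. The two-sided exact permutation p was 0.1, the smallest that 3 against 3 allows, and the p adjusted over 7 receptor pairs was 0.467. The ratio of Tlr4 to Tlr2 was 2.27 ± 0.55 in ND and 1.65 ± 0.37 in HCD (SD, n = 3, exact permutation p = 0.2, adjusted p = 0.467). No pair passed the test after adjustment, a threshold that this number of samples could not reach.

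Tlr5, the flagellin receptor, was the least abundant member. Its deposited values were 0.0820, 0.114 and 0.195 FPKM under ND against 0.0599, 0.197 and 0.0403 FPKM under HCD, which corresponded to 9 to 43 fragments per library. It lay below the mean of 0.5 FPKM required for testing and was the 1 member of 10 not tested. The gene is at chr1:182954788-182976044 on the plus strand.

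Among the endosomal receptors Tlr13, the mouse sensor of bacterial ribosomal RNA, had the highest deposited values. They were 3.10, 5.56 and 4.35 FPKM under ND against 3.72, 6.33 and 3.64 FPKM under HCD. ND 1 was lowest and HCD 2 highest, while ND 2 and ND 3 were above HCD 1 and HCD 3. The difference was 0.05 ± 0.24 (SE), with an adjusted p of 0.965, and its sign turned without ND 1 (-0.13) and without HCD 2 (-0.16). Tlr13 lies on the X chromosome at chrX:106143204-106160493, plus strand.

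Tlr3 senses double-stranded RNA and is the receptor that relies on Ticam1. It was at 2.09, 3.48 and 3.14 FPKM under ND against 2.66, 4.09 and 3.07 FPKM under HCD. The groups overlapped over most of their range, with a difference of 0.13 ± 0.18 (SE) and an adjusted p of 0.870; without ND 1 it was -0.03. The gene, at chr8:45395665-45411080 on the minus strand, overlaps the antisense gene Gm45542 (chr8:45410063-45410760), and reads of the 2 genes cannot be told apart without a statement that counting used the strand.

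Tlr7 and Tlr8, related receptors of single-stranded RNA and its breakdown products, lie 40599 bases apart on the minus strand of the X chromosome (chrX:167304929-167330558 and chrX:167242696-167264329). Tlr7 was at 0.247, 0.911 and 0.603 FPKM under ND against 0.564, 1.03 and 0.636 FPKM under HCD. Its difference was 0.15 ± 0.19 (SE), with an adjusted p of 0.867, and -0.01 without ND 1. Tlr7 was read from 65 to 275 fragments per library. Tlr8 was at 0.610, 1.52 and 1.18 FPKM under ND against 1.17, 3.40 and 1.26 FPKM under HCD. HCD 2 stood above the other 5 libraries, and HCD 1 and HCD 3 lay inside the ND range. The Tlr8 difference of 0.43 ± 0.31 (SE) was the largest of the tested members, with an adjusted p of 0.796. It was 0.10 without HCD 2, 0.25 without ND 1 and -0.08 without both.

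Tlr9 recognises unmethylated CpG DNA and lies at chr9:106222598-106226883 on the plus strand. It was at 0.616, 2.14 and 1.84 FPKM under ND against 1.94, 3.41 and 1.18 FPKM under HCD. The span from lowest to highest library was 5.53-fold, close to the 5.58-fold of Tlr8. Tlr9 was read from 49 fragments in ND 1 and 242 in HCD 2, so the low end of this span rests on few fragments. The difference was 0.32 ± 0.34 (SE), with an adjusted p of 0.843. Leaving out ND 1 gave 0.03, leaving out HCD 2 gave 0.06 and leaving out HCD 3 gave 0.56.

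**Figure D1:**
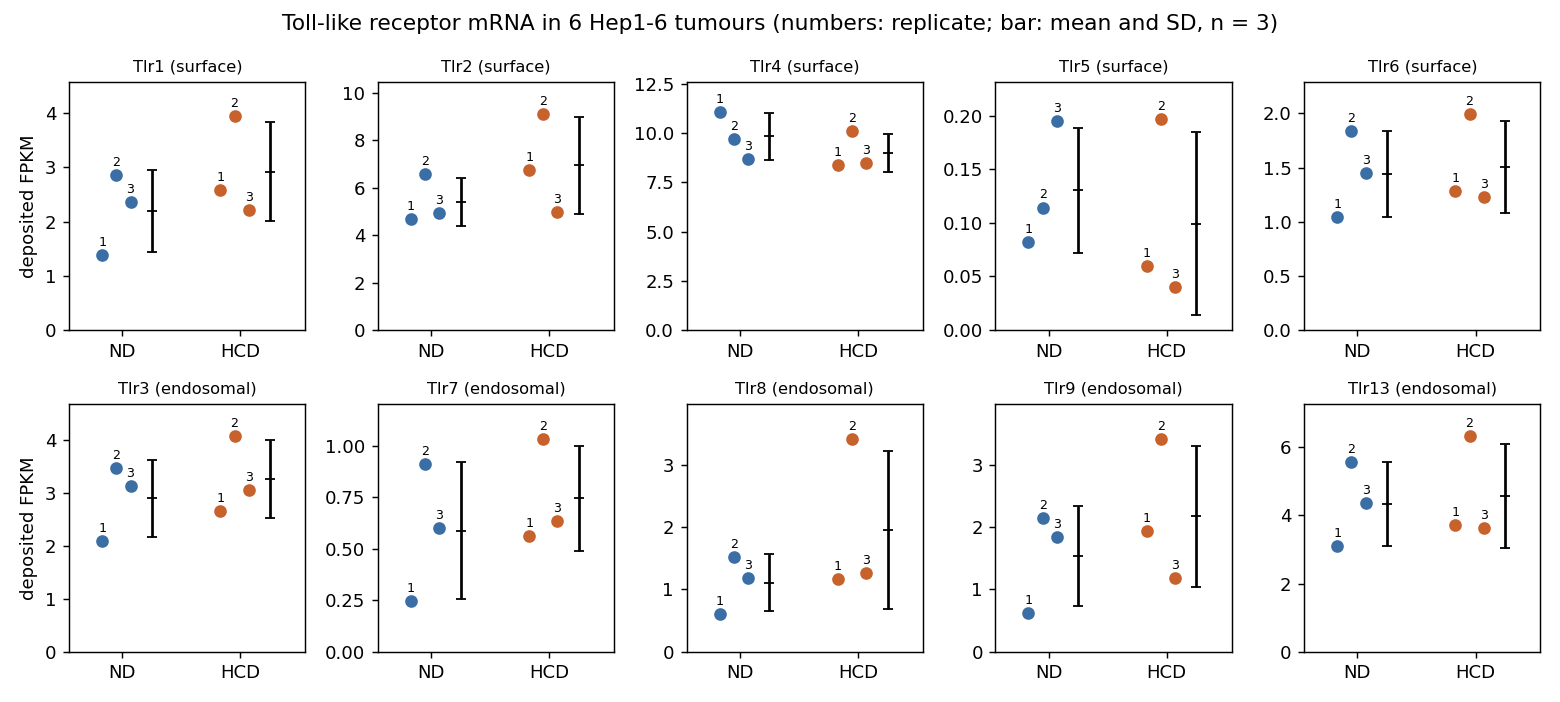
Deposited FPKM (vertical axis, each panel on its own scale from 0) of the 10 members in 3 ND and 3 HCD tumours; points are libraries numbered by replicate, and bars give the mean and SD. In every panel the ND and HCD points overlap, and in 8 of the 9 tested members ND 1 is lowest and HCD 2 highest.

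None of the 9 tested members passed the test, and none had an unadjusted p under 0.05. Across all tested genes 0.0% were called at an adjusted p of 0.05 by limma, and 789 genes had an unadjusted p under 0.05; limma-voom on recovered reads also called 0 genes, with 711 under 0.05. No tested member had every HCD library above every ND library, which held for 5.98% of all tested genes, and none had every HCD library below, which held for 6.13%. The mean was higher in HCD for 8 members and lower for Tlr4, against 55.7% of all tested genes higher. This count fell to 4 without ND 1, to 6 without HCD 2 and to 1 without both. It stayed at 8 without ND 2 and HCD 1, the libraries with the most muscle transcripts. The median member difference was 0.15, beside 0.02 over all tested genes. It was -0.01 without ND 1, 0.03 without HCD 2 and -0.13 without both. It was larger with a pseudocount of 0.1 (0.33), by limma-voom (0.32) and with merged exon lengths (0.26).

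The 95% interval of the difference lay within 1 log2 unit of 0 for 7 of the 9 tested members. It reached 1.19 for Tlr8 and 1.15 for Tlr9. These limits are on the log2(FPKM + 1) scale, and for low genes such as Tlr7 and Tlr1 they stand for a larger fold in FPKM. For Tlr4 the interval ran from -0.37 to 0.15. The median interval extended 0.50 to each side for the members and 0.23 for all tested genes.

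**Figure D2:**
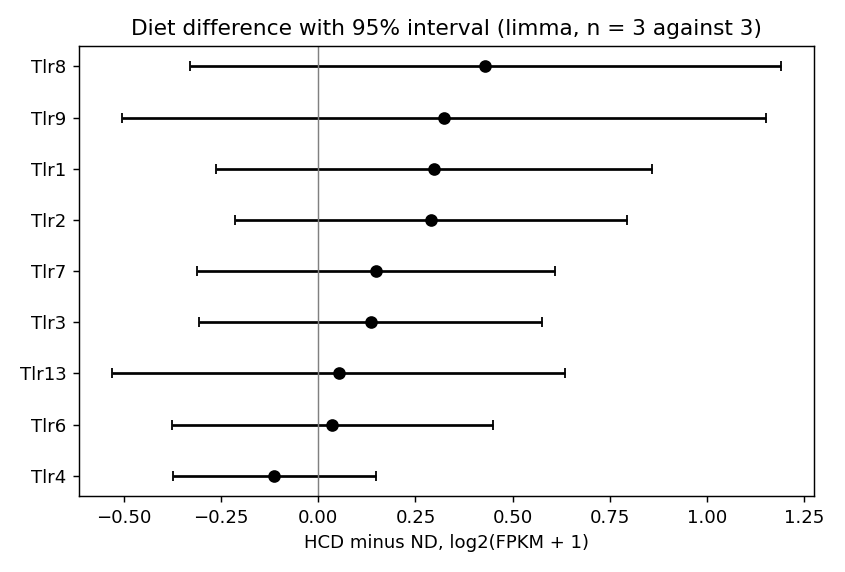
Difference between diets on the log2(FPKM + 1) scale (horizontal axis, HCD minus ND) for the 9 tested members, with points for the estimate and bars for the 95% interval from limma. Every interval includes 0, and the point for Tlr4 is the only one below 0.

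Most members shared their extreme libraries. ND 1 was the lowest library for 8 of the 9 tested members (27.3% of all tested genes) and HCD 2 the highest for 8 (24.0%). Both held for the same 8 members, and for 11.9% of all tested genes. Tlr4 was the exception, highest in ND 1 and lowest in HCD 1. The log2 level of the macrophage markers followed the same order, at 3.48 in ND 1, between 4.05 and 4.43 in the 4 other libraries and at 4.997 in HCD 2. Of these 12 markers 11 had a higher mean in HCD, with a median difference of 0.38, and none was called. In bulk tumour RNA, fewer cells of a type and less RNA per cell cannot be told apart.

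The macrophage marker mean was 0.39 higher in HCD on the log2 scale. Set against it in the same library, 8 of the 9 tested members had a lower mean in HCD, and so did 96.7% of all tested genes, since any gene with a smaller difference must. Tlr4 differed most, at -0.62 ± 0.63 in ND and -1.12 ± 0.37 in HCD (SD, n = 3, log2 units relative to the marker mean). Tlr9 varied least against the markers, staying between -2.92 and -2.72 in all 6 libraries. Tlr8 was 0.04 higher in HCD on this scale. The count of 8 and these spreads belong to log2(FPKM + 1), in which the added 1 narrows the differences of low genes most. With a pseudocount of 0.1 the differences between diets of Tlr8, Tlr9 and Tlr1 were 0.68, 0.52 and 0.41. Those of the other tested members were smaller. The marker mean was not taken with that pseudocount. With the marker level as a covariate in the limma fit, 3 of the 9 members had a higher estimate in HCD and none was called.

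**Figure D3:**
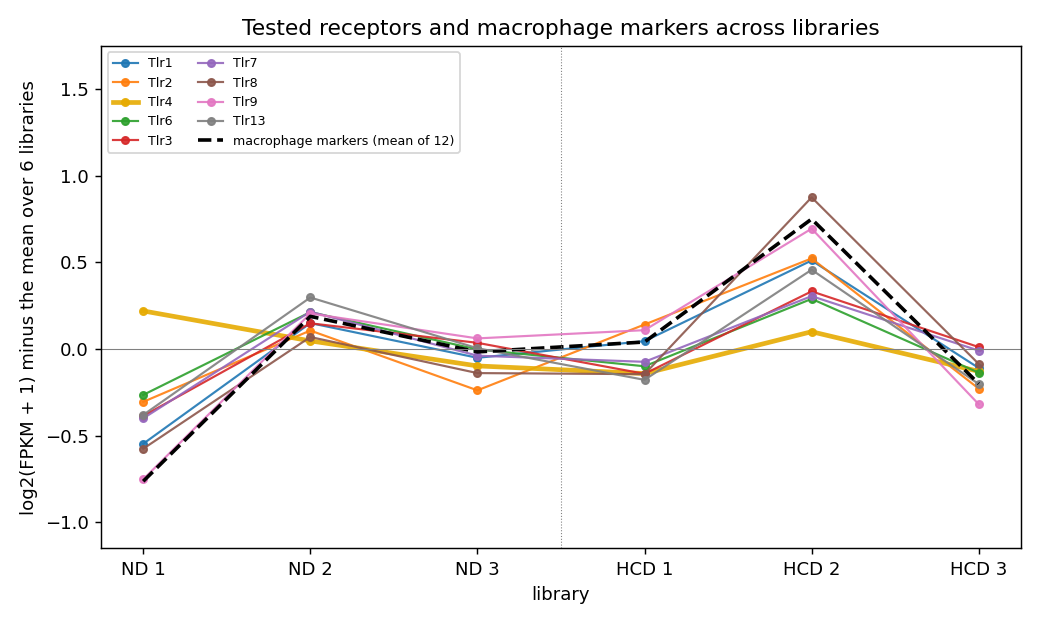
Level of the 9 tested members in each library (vertical axis, log2(FPKM + 1) minus the member's own mean over 6 libraries), with the mean of 12 macrophage markers as a dashed line. All members but Tlr4 are lowest in ND 1 and highest in HCD 2, as are the macrophage markers.

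Other leukocytes also carry TLRs. Markers of neutrophils, which carry Tlr2 and Tlr4, summed to 41.9 to 106 FPKM in ND and 40.2 to 43.8 FPKM in HCD over 12 genes, with ND 1 and ND 3 high. Most of the sum in ND 1 and ND 3 was S100a9 (61.2 and 60.2 FPKM) and S100a8 (16.7 and 17.7 FPKM). Of the 7 tested neutrophil markers 6 were lower on average under HCD, without a call, and Ngp was higher. The other 5 were below the level for testing. B cells carry Tlr9 and Tlr7. Their tested markers Cd79a and Cd79b, parts of the B cell receptor, reached 2.53 and 1.35 FPKM, both highest in HCD 1, whereas Ms4a1 (CD20) did not exceed 0.410 FPKM. The 7 plasmacytoid dendritic cell markers summed to 11.9 to 18.6 FPKM in ND and 12.5 to 26.9 FPKM in HCD. Of these, Tcf4 was at 9.29 to 10.8 FPKM, Cox6a2 reached 12.3 FPKM in HCD 1 and Ly6d reached 2.64 FPKM. The other 4 were below the level for testing, and among them Siglech and Ccr9 did not exceed 0.285 and 0.138 FPKM. The 9 conventional dendritic cell markers summed to 12.8 to 31.1 FPKM in ND and 21.3 to 41.0 FPKM in HCD, again lowest in ND 1 and highest in HCD 2. The part of these cells in the receptor values was not tested.

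Levels of different receptors were compared per length. The length that turned a member's deposited FPKM into whole reads was often longer than its merged M21 exons, and for 8 members equalled the sum of distinct M21 exon lengths, in which overlapping exons of different transcripts count more than once. It was 11508 bases against 4082 for Tlr7, 7810 against 3586 for Tlr8, 10669 against 4790 for Tlr5 and 6158 against 3346 for Tlr1, whereas Tlr2 (3014 bases) and Tlr9 (3478 bases) had a single transcript and 1 length. For Tlr3 and Tlr13 the implied lengths, 5714 and 4179 bases, matched neither M21 length. This scale leaves the comparison between diets of 1 gene as it is, apart from the added 1, and lowers some genes against others.

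Per kilobase of merged exons, at equal library size, Tlr4 led at 11.5 ± 1.31 (SD over 6 libraries), followed by Tlr2 at 6.17 ± 1.68, each above the next member in all 6 libraries. Tlr1 followed at 4.71 ± 1.56 and Tlr13 at 4.32 ± 1.21, an order seen in 4 of 6 libraries only. Tlr3 (3.39 ± 0.75) and Tlr8 (3.32 ± 2.11) came next and kept their order in 5 of 6. Tlr7 (1.88 ± 0.78) and Tlr9 (1.85 ± 0.95) stood in this order in 3 of 6, and Tlr9 was above Tlr6 (1.63 ± 0.41) in 4 of 6. Tlr5 was last at 0.256 ± 0.15. On the deposited scale Tlr8 had been at 1.52 and Tlr7 at 0.666, so that Tlr7 ranked ninth there.

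**Figure D4:**
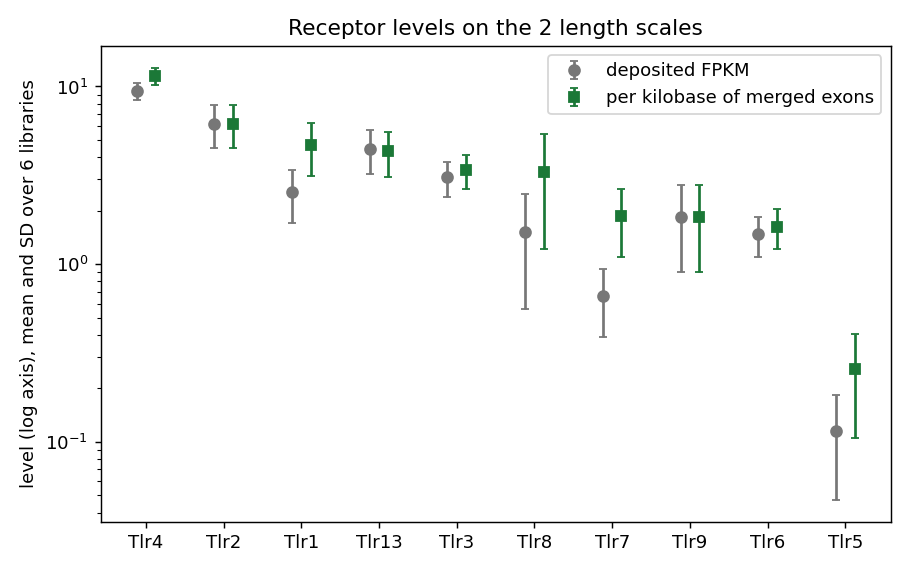
Mean level and SD over 6 libraries (vertical log axis) of the 10 members as deposited FPKM (circles) and per kilobase of merged exons (squares). Tlr1, Tlr5, Tlr7 and Tlr8 move upward on the merged scale, whereas Tlr2 and Tlr9 do not move.

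The remaining mouse TLR genes are Tlr11 and Tlr12, endosomal sensors of protozoan profilin. Tlr12 was at 1.84, 3.75 and 4.23 FPKM under ND against 4.62, 5.76 and 3.69 FPKM under HCD, with a difference of 0.45 ± 0.26 (SE) and an adjusted p of 0.794. Like most members it was lowest in ND 1 and highest in HCD 2. Tlr11 was below the level for testing, at 0.233 to 0.541 FPKM in ND and 0.254 to 0.697 FPKM in HCD.

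The TLR pathway was described with 101 further genes in 8 lists, of which 93 were tested. No gene of them passed the test. Under HCD 48 means were higher and 45 lower, and the median difference was 0.01. An unadjusted p under 0.05 was found for 6 of the 93 (6.45%), beside 5.88% of all tested genes. All 6 were lower in HCD. The directions of the 789 tested genes with such a p were not counted, so this one has no share to set beside it. No pathway gene had every HCD library above every ND library, which held for 5.98% of all tested genes. Every HCD library was below every ND library in 6 of the 93 tested, a share near the 6.13% of all tested genes. These were Ctsl, Nfkb2, Relb and Cxcl1 and, named after their values were seen, Rela and Ap3b1.

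Among co-receptors and accessory molecules 4 of 8 had a higher mean in HCD and 4 a lower one. Their median of 0.20 shrank to 0.03 when ND 1 was left out and to 0.11 when HCD 2 was, and reached -0.07 when both were. Cd14, which hands lipopolysaccharide to Tlr4, was at 17.8, 15.3 and 17.3 FPKM under ND against 12.3, 15.7 and 12.8 FPKM under HCD. ND 1 and ND 3 were above all HCD libraries, and ND 2 was below HCD 2. The difference was -0.29 ± 0.11 (SE), with an adjusted p of 0.794. Clec7a (dectin-1), a fungal glucan receptor that cooperates with Tlr2, differed by 0.69 ± 0.34 (SE, adjusted p = 0.794) and was lowest in ND 1 and highest in HCD 2. Ly86, the partner of the TLR-like protein Cd180, differed by 0.43 and showed the same extremes.

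Of 12 genes for trafficking, folding and processing of TLRs, 8 had a higher mean. Ctsl, a lysosomal protease that cleaves Tlr9, was at 214, 191 and 211 FPKM under ND against 150, 188 and 178 FPKM under HCD, without overlap. Its difference was -0.26 ± 0.10 (SE), with an adjusted p of 0.794. Lgmn, another protease that processes Tlr9, differed by 0.40 in the other direction, with overlap (adjusted p = 0.794). Of the adaptors, Myd88 averaged 4.18 ± 0.23 FPKM under ND against 4.69 ± 0.62 FPKM under HCD (SD, n = 3), a difference of 0.13 with an adjusted p of 0.795. Tirap, which bridges Tlr2 and Tlr4 to Myd88, differed by 0.05, and Pik3ap1, a link to PI3 kinase, by 0.09. All 4 tested adaptors had a higher mean, and 2 were below the level for testing.

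The kinases and ubiquitin ligases downstream of the adaptors had 9 higher and 9 lower means among 18 tested genes and a median of 0.00. Ikbke, a kinase upstream of interferon regulatory factors, differed by -0.15, Tab1, a subunit of the Map3k7 complex, by -0.13, and Ube2n, a ubiquitin-conjugating enzyme, by 0.01. Among 10 transcription factors Nfkb2, the precursor of the p52 subunit of NF-kB, was at 53.4, 53.4 and 53.3 FPKM under ND against 47.3, 42.3 and 41.9 FPKM under HCD. The groups did not overlap, and the ND libraries were nearly equal. The difference was -0.28 ± 0.06 (SE), with an unadjusted p of 0.00357 and an adjusted p of 0.794. Relb, the partner of p52, differed by -0.25 ± 0.09 (SE, adjusted p = 0.794), also without overlap. Rela, chosen after its values were seen, differed by -0.12 without overlap (adjusted p = 0.794).

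Negative regulators had a higher mean in 6 and a lower mean in 9 of 15 genes. Nfkbia, the inhibitor of NF-kB that NF-kB itself induces, differed by -0.26, Tnip1, a partner of A20, by -0.21 and Sigirr, an inhibitory receptor of the family, by -0.19, each with an adjusted p of 0.794. Of 15 tested induced cytokines and enzymes, the mean was higher in 7 and lower in 8. Il1b was at 18.0, 10.1 and 23.3 FPKM under ND against 6.43, 12.1 and 9.76 FPKM under HCD, a difference of -0.76 ± 0.33 (SE, adjusted p = 0.794). Cxcl1, a neutrophil chemoattractant, differed by -0.54 without overlap, and Cxcl10, an interferon-induced chemokine, by 0.24. Ifnb1 (interferon beta), named after its values were seen, was listed at 0 in all 6 libraries.

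Endogenous TLR ligands had a higher mean in 4 and a lower mean in 7 of 11 tested genes. Their median was -0.24, which rested on ND 1: it was 0.03 without that library and -0.40 without ND 2. By limma-voom it was -0.15, and with merged exon lengths -0.14. Fn1 (fibronectin) differed by -0.30 ± 0.11 (SE, adjusted p = 0.794). S100a9, a ligand of Tlr4 that neutrophils release, was at 61.2, 19.1 and 60.2 FPKM under ND against 18.0, 20.4 and 19.9 FPKM under HCD. ND 1 and ND 3 were high and ND 2 lay among the HCD libraries, as for the summed neutrophil markers. S100a9 is on that list and made up most of its sum in ND 1 and ND 3, so this likeness is not a separate result. The difference was -1.06 ± 0.44 (SE), with an adjusted p of 0.794; without ND 2 it was called (adjusted p = 0.0334, limma).

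**Figure D5:**
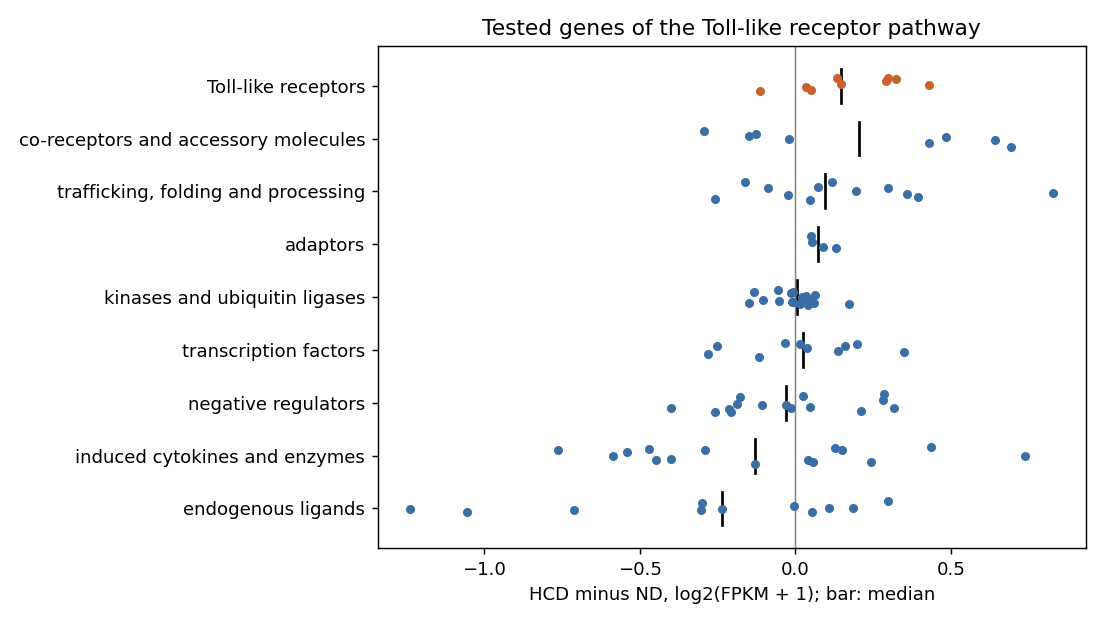
Difference between diets (horizontal axis, HCD minus ND, log2(FPKM + 1)) of the tested members and of 8 lists of pathway genes; points are genes and bars are list medians. Medians lie between -0.24 for endogenous ligands and 0.20 for co-receptors, and both are 0.03 without ND 1.

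The genes with the profile closest to each member were sought among 10854 genes by the root mean square difference of centred log2 values over the 6 libraries. For Tlr9 the nearest was Ptprc (CD45, the common leukocyte antigen) at 0.03, followed by Ifi203. For Tlr13 it was Siglec1, a macrophage sialic acid receptor, at 0.05, followed by Pilra. For Tlr8 it was Phf11a at 0.04, followed by Cd68, a macrophage marker, at 0.07. Dhx58 and Gpr132 were nearest to Tlr6, Tgm2 and Cytip to Tlr3, Atp13a2 and Lpxn to Tlr1, and Gsn and Ptprb to Tlr2. Tlr4 had Rora and Spty2d1 as its nearest genes. With 6 points per profile these are descriptions of the same libraries.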

How the data were processed

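RNA-seq libraries of 6 tumours were analysed, 3 per diet. Per the labels' protocols, paired-end TruSeq libraries were made from total RNA. The authors deposited FPKM values with a column for each tumour. Tools listed in the submitters' processing notes, without their roles, are TopHat2 2.0.9, CASAVA 1.8, edgeR and HTSeq, with the build mm10. The annotation release and strand use are not stated in the labels or headers.

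The 13417 genes averaging 0.5 FPKM or more were fitted with limma 3.58.1 (R 4.3.3) on log2(FPKM + 1), with a variance trend, diet as the only term, and two-sided p-values adjusted by Benjamini-Hochberg (threshold 0.05). FPKM values are not counts; differences on this scale understate changes of low genes. Ratios of receptors were compared by exact permutation over samples. The fit was tested on simulated data.

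Members and lists were chosen with earlier results of these data known. Named genes are all members, Tlr11 and Tlr12, the 2 members of each pathway list with the lowest p and the 1 with the highest mean, and the 2 nearest profiles of each member with a mean of at least 1 FPKM. Other genes, such as cell type markers, were named after their values were seen. Marker lists of 13 cell types were summed. A B cell marker and the sum that holds it are not reported here.

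Whole reads were recovered for 99.5% of tested genes, within 0.02 of a read, against 0.067% of 1500 decoys. Merged exons and positions are from GENCODE M21 (34344 of 34745 IDs matched), promoters from RefSeq on GRCm38.p6. Alternatives changed the pseudocount, filter, scaling, replicate block, libraries, length and covariates.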

Additional observations from a re-analysis of the deposited data

How the results depend on the processing

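No TLR was called by limma under any of 16 alternatives; the lowest adjusted p of a member was 0.613. Of 144 member differences 126 kept their sign and 18 turned. Over leaving out each library, the number of tested TLRs with a higher mean in HCD ran from 4 to 8, genes called lower from 0 to 1 and pathway genes called from 0 to 1. The lowest value was without ND 1, and the 1 call (S100a9, adjusted p = 0.0334 by limma) came without ND 2. In these fits Tlr3 ranged from -0.0251 to 0.24, Tlr13 from -0.16 to 0.21, Tlr7 from -0.0144 to 0.29 and Tlr6 from -0.10 to 0.15, and the median member difference from -0.01 to 0.29. With macrophage marker level as a covariate 3 members were higher, and Tlr3 (-0.0585), Tlr13 (-0.22), Tlr7 (-0.0454), Tlr9 (-0.0788) and Tlr6 (-0.15) turned. Without ND 1 and HCD 2, chosen after seeing the data, 1 was higher, and Tlr3 (-0.16), Tlr13 (-0.34), Tlr8 (-0.0809), Tlr7 (-0.13), Tlr1 (-0.0816), Tlr9 (-0.24) and Tlr6 (-0.22) turned. The cause was not tested. Leaving out ND 2 and HCD 1 and using merged exon length were also chosen after seeing the data, and under both 8 members remained higher.

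The labels do not state that replicate numbers pair the diets, so the numbers were not taken as pairs. Deviations of same-numbered libraries from their diet means correlated at -0.19, 0.14 and 0.06. With 3 libraries per diet these values cannot decide whether the samples were paired. With the replicate block 0 genes were called by limma, 753 had an unadjusted p under 0.05, and the lowest adjusted p was 0.794. Tlr5, at 9 to 43 fragments per library, was too shallow to compare.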

Other observations

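The length behind the deposited FPKM differed from the usual merged exon length across the table. Of 13349 tested genes with whole reads, 67.2% were whole at exactly the sum of distinct M21 exon lengths, in which overlapping exons of different transcripts count more than once. Among 11071 genes with overlapping exon models, 7130 were whole at that sum and 28 at the merged length. The median ratio of the implied to the merged length was 1.18, and for Tlr7 it was 2.82. Levels of different genes in this table are therefore not directly comparable where transcript numbers differ. Among the members Tlr7 had rank 9 on the deposited scale and rank 7 per kilobase of merged exons, below Tlr8 on both.

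T cell markers also had a higher mean in HCD in 9 of 9 tested genes and mast cell markers in 5 of 5, with no gene called by limma. Their summed levels were lowest in ND 1 (8.33 and 17.5 FPKM) and highest in HCD 2 (65.5 and 147 FPKM), the extremes seen for 8 of the 9 tested TLRs. The mean of log2(FPKM + 1) was higher in HCD for 7 of 7 endothelial, 7 of 7 skeletal muscle, 7 of 8 conventional dendritic cell, 3 of 3 NK cell, 2 of 3 plasmacytoid dendritic cell and 2 of 2 B cell markers that were tested. It was higher for 4 of 5 skin epithelium, 3 of 8 hepatoma and 2 of 7 fibroblast markers, again without a call by limma. The skeletal muscle sums were 681 FPKM in ND 2 and 818 FPKM in HCD 1, against 5.14 to 81.8 FPKM in the other libraries. In FPKM, Ckm averaged 33.5 in ND and 29.7 in HCD, and Myh4 36.45 and 23.1. The other muscle markers averaged higher in HCD.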
